A study of Mus musculus with 8 samples.

Results

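Autophagy and lysosome genes were examined in the livers of mice fed a Control or a Low AA diet. Members were chosen by gene symbol, with no use of their values: the Atg genes whose symbol goes on with a number, the Gabarap and Map1lc3 genes, Ulk1, Ulk2, Ulk3, Becn1, Sqstm1, Wipi1, Wipi2, Tfeb, Lamp1, Lamp2, the V-ATPase subunit genes (Atp6v0, Atp6v1 and Atp6ap) and the cathepsins named by a single letter (Ctsa to Ctsz). The rule took 61 of the 11784 genes in the deposited table. Of these, 29 act in autophagy, 19 carry V-ATPase symbols, 11 are cathepsins and 2 are Lamp genes. The V-ATPase group includes a processed pseudogene, Atp6v0c-ps2.

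The mice were male and of the C57BL/6J strain, and they began the diets at 9 weeks of age. Each group held 4 mice, which ate an amino acid-defined diet for 4 months and were killed after a fast of about 16 hours. The Control diet (TD.140711) and the Low AA diet (TD.140712) differed in amino acid content, with carbohydrate taking the place of the amino acids removed. All mice of both groups were fasted, and the samples hold no fed liver. Polyadenylated RNA of whole liver was sequenced in stranded libraries. Each value below is a whole-number read count per gene, taken to have been scaled between mice by the authors, which was inferred from the values. The total per mouse, from 28361406 to 29485422 on the Control and from 27876664 to 30799385 on the Low AA diet, is on this reading a sum of scaled values and is not used as the sequencing depth. All 8 hepatocyte markers listed were in the table and summed to between 2254196 and 2745511 in each mouse. In RNA from whole liver, fewer cells of a type and less RNA per cell cannot be told apart.

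Autophagy wraps cytoplasm in a double membrane, the autophagosome, and delivers it to the lysosome for breakdown. The kinase Ulk1 with Atg13 starts the process, the Becn1 and Atg14 complex makes the lipid signal, Wipi and Atg2 proteins and Atg9a supply membrane, and Atg7, Atg3 and the Atg12, Atg5 and Atg16l1 system attach LC3 and Gabarap proteins to the new membrane. In the lysosome, the V-ATPase pumps protons inward and the cathepsins cut proteins. The liver is a classical tissue for fasting-induced autophagy, which amino acids hold down through mTORC1, and the transcription factor Tfeb binds an E-box in the promoters of many lysosomal genes.

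The E-box CACGTG, a palindrome that reads the same on both strands, was searched in RefSeq promoters of build GRCm38.p6, each running from 250 bases before to 50 bases after an annotated start. Promoters were found for 47 of the 61 members, in 55 windows, and 13 windows (23.6%) held CACGTG, against 7.15% of all 32851 windows and 10.1% of the windows of genes in the table. The longer form TCACGTGA, which contains CACGTG, was in 6 member windows (10.9%), against 0.974% of all windows and 1.89% of those of genes in the table. By group, CACGTG was in 4 of 9 cathepsin windows, 4 of 15 V-ATPase windows and 4 of 29 autophagy windows. A match is a description of the letters and does not show binding. The stretches below are shown because they are the E-boxes of a member of each group, among them the member with the smallest p-value in the diet comparison (Ctsa) and the window with the most copies (Lamp1). Capitals mark CACGTG.
Lamp1, 4 copies, chr8:13159088-13159163, plus strand: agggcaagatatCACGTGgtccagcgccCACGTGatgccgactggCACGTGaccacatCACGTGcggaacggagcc
Ctsa, 2 copies, chr2:164833749-164833795, plus strand: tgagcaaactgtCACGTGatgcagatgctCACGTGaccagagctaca
Atp6v0d1, 1 copy, chr8:105566050-105566079, minus strand: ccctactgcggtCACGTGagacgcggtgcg
Atp6v1a, 1 copy, chr16:44139373-44139402, minus strand: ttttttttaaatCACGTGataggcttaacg
Atg3, 2 copies, chr16:45158723-45158775, plus strand: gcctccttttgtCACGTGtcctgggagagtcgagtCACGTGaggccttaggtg
Atg7, 1 copy, chr6:114670952-114670981, plus strand: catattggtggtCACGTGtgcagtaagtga
In Lamp1 the copies begin between 61 and 15 bases before the start, and in Ctsa they lie at the annotated start of its window. The windows of Ctsa, Atg7 and Atp6v1a lie inside the GENCODE M21 bounds of the gene, so their start is not the outermost one. For Atg7 the gene begins at 114643097 and the window at 114670846. Among members with a promoter, the 13 with CACGTG had a median log2 difference between diets of -0.07 (range -0.41 to 0.12, 8 of them negative), and the 34 without it had a median of -0.04 (range -0.59 to 0.23, 19 of them negative).

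The Control mice F2212 and F7111 stood apart from the other 6 mice in how values depended on transcript length. Over the 2917 genes with the shortest transcripts, the median log2 deviation from the mean of the 8 mice was 0.20 in F2212 and -0.18 in F7111, and over the 2917 with the longest it was -0.24 and 0.18. The Low AA mouse H1315 leaned the way of F2212, less far (0.12 and -0.11). The 11 cathepsins and the 19 V-ATPase genes have shorter transcripts (medians of 2126 and 2049 bases) than the 29 autophagy genes (3178 bases), against 2949 bases over all genes with a length. F2212 also stood apart in Cela1, an elastase gene of the exocrine pancreas, with 36587 against 130 to 288 in the other mice, and Cela1 was the sole pancreatic acinar marker of 9 listed that was in the table. A correction for transcript length, chosen after the values were seen, is given after the members.

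No member passed the test between diets. At a Benjamini-Hochberg adjusted p under 0.05 in limma, 47 genes of the table were called (0.399%), 12 of them with higher and 35 with lower values in Low AA mice, and 0 of the 61 members were among them. The smallest adjusted p of a member was 0.193, for Ctsa. At an unadjusted p under 0.05, 5 members were lower (8.2%, against 6.7% of all genes) and 1 was higher (1.64%, against 5.13%). Ctsa and Ulk3 were lower in every Low AA mouse than in every Control mouse, which is 3.28% of the members against 3.55% of all genes, and Atp6v0d2 was higher in every Low AA mouse, which is 1.64% against 3.26%. These shares were near the background or below it. The median log2 difference over the members was -0.04, against 0.00 over all genes (0.0023).

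The intervals show what size of difference these 8 mice leave possible. The 95% interval of the difference lay within a 2-fold change in either direction for 57 of the 61 members (93.4%, against 91.4% of all genes), and within a 1.5-fold change for 50 of them (82.0%, against 64.6%). Gabarapl1, Wipi1, Atp6v0c and Atp6v0d2 were the members whose interval reached past 2-fold. A p-value that misses the threshold does not show that a gene was alike on both diets.

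**Figure D1:**
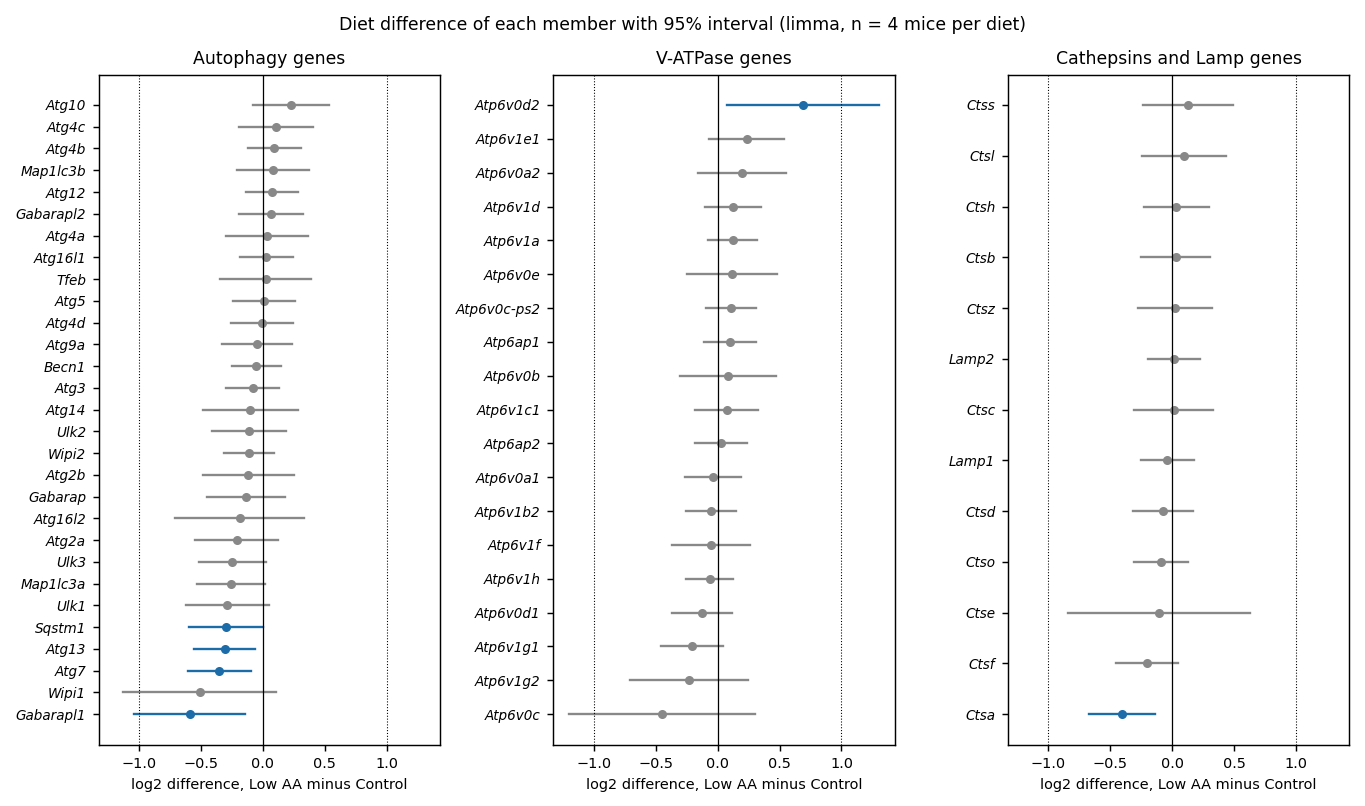
Log2 difference (Low AA minus Control) of each of the 61 members from limma on log2(value + 1), with its 95% interval as a bar; blue marks an unadjusted p under 0.05, and dotted lines mark a 2-fold change. The autophagy genes lie mostly to the left of 0 (19 of 29), the V-ATPase genes and cathepsins on both sides, and no member passed the adjusted threshold.

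In the sentences that follow, values are scaled read counts in the order F129, F2212, F7111 and F2110 for Control and H1126, H828, H817 and H1315 for Low AA, and log2 differences are Low AA minus Control. Gene positions are from GENCODE M21 on GRCm38.

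Among the autophagy genes, the 4 initiation genes that the symbol rule took (Atg13 and the Ulk kinases) all had lower means on the Low AA diet. Their median log2 difference was -0.27, and none passed the test. Rb1cc1, a part of the Ulk1 complex that the rule did not take, had a log2 difference of 0.02 (adjusted p = 0.978, limma). That of Ambra1, also outside the rule, was -0.03. Atg13 (chr2:91674618-91710576), the adaptor that ties the kinase to its complex, was at 1434, 1296, 1606 and 1375 in Control and at 1093, 1193, 1017 and 1308 in Low AA mice. Its log2 difference was -0.31 (SE 0.11, unadjusted p = 0.018, adjusted p = 0.289, limma), and only H1315 among the Low AA mice exceeded the lowest Control mouse. Ulk3 (chr9:57589452-57596233), a kinase related to Ulk1, was at 207, 216, 270 and 209 in Control and at 194, 186, 187 and 188 in Low AA mice. The groups did not overlap, yet the gap between them was narrow, and the log2 difference was -0.25 (SE 0.12, adjusted p = 0.473), or -0.16 without F7111. Ulk1, the kinase that mTORC1 inhibits when amino acids are plentiful, was at 2027, 2731, 3107 and 3210 in Control and at 1968, 2598, 2191 and 2217 in Low AA mice. F129 lay among the Low AA mice, and the log2 difference was -0.29 (SE 0.15, adjusted p = 0.514). It was -0.43 without F129, with no overlap and an adjusted p of 0.227, and -0.21 without F2110. Ulk2 had a log2 difference of -0.11.

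The 5 members that supply membrane likewise had lower means on the Low AA diet (median log2 difference -0.12), with none past the test. Genes of this step outside the symbol rule were mixed in direction. The Wipi relatives Wdr45 and Wdr45l had log2 differences of -0.085 and 0.15, and Tmem41b and Vmp1 of 0.09 and 0.31. Wipi1 (chr11:109573331-109611967), a reader of the lipid signal on the forming membrane, was at 374, 203, 404 and 569 in Control and at 259, 205, 236 and 337 in Low AA mice. F2212 had the lowest value of all 8, close to that of H828, and the log2 difference was -0.51 (SE 0.28, 95% interval -1.13 to 0.11, adjusted p = 0.526). Without F2212 the difference was the largest of its alternatives in size, at -0.79, with an adjusted p of 0.124, and without F2110 it was -0.30. The other members of this step, Wipi2, Atg2a, Atg2b and Atg9a, had log2 differences from -0.21 to -0.05. In the nucleation complex, Becn1 was at 1733, 1465, 1521 and 1543 in Control and at 1465, 1468, 1559 and 1531 in Low AA mice, a log2 difference of -0.05 (95% interval -0.25 to 0.14), and that of its partner Atg14 was -0.10.

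The conjugation genes divided about evenly in direction (3 of 7 negative). Atg7 (chr6:114643097-114860614), the enzyme that activates both Atg12 and the LC3 proteins, was at 1180, 1335, 1397 and 1171 in Control and at 968, 923, 909 and 1191 in Low AA mice. The Low AA mice H1126, H828 and H817 lay below every Control mouse and H1315 lay within the Control range. The log2 difference of Atg7 was -0.35 (SE 0.12, unadjusted p = 0.0117, adjusted p = 0.255, limma). The enzymes that act beside it did not share a direction. Atg3, which passes LC3 on to lipid, had a log2 difference of -0.08, while those of Atg5, Atg12 and Atg16l1, which form the ligase, were 0.01, 0.07 and 0.03, and that of Atg16l2 was -0.19. Atg10, which joins Atg12 to Atg5, had a log2 difference of 0.23, the highest of the autophagy genes. The 4 proteases that trim LC3, Atg4a to Atg4d, had log2 differences between -0.01 and 0.10.

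Gabarapl1 (chr6:129533160-129542346), an LC3-like protein that binds cargo receptors on the autophagosome, had the lowest log2 difference of all 61 members. It was at 12201, 17512, 11263 and 9593 in Control mice and at 6275, 10838, 8156 and 8073 in Low AA mice. H828 lay within the Control range, above F2110, so the groups overlapped, and F2212 was far above the rest. The log2 difference was -0.59 (SE 0.20, 95% interval -1.04 to -0.14, unadjusted p = 0.0148, adjusted p = 0.272, limma), and it ran from -0.73 to -0.42 over the alternatives. Its relatives had log2 differences smaller in size. Map1lc3a was at 1336, 1499, 1016 and 1156 in Control and at 1088, 978, 1027 and 1047 in Low AA mice, with a log2 difference of -0.26 (SE 0.12, adjusted p = 0.459), or -0.17 without F2212. Gabarap was at 5635, 7043, 4427 and 5352 and at 4747, 4619, 5081 and 5795, with a log2 difference of -0.14 (adjusted p = 0.78), which was -0.02 without F2212 and -0.24 without F7111. Map1lc3b, which encodes the LC3 form most used as an autophagosome marker, was at 4933, 5688, 4544 and 6251 and at 5130, 5112, 5640 and 6739, a log2 difference of 0.08 (95% interval -0.21 to 0.37). The spread of Map1lc3b within each diet was larger than the difference between the diets.

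Per kilobase of transcript, averaged over the 8 mice, Gabarapl1 was the most abundant of the LC3 family (5763.1 ± 1889.9, SD), followed by Gabarap (3950.7 ± 623.5), Map1lc3b (2174.0 ± 286.2), Gabarapl2 (1177.3 ± 123.4) and Map1lc3a (1028.2 ± 164.1). Gabarapl1 and Gabarap overlapped across mice, with Gabarapl1 higher in 7 of the 8, as did Gabarapl2 and Map1lc3a. Gabarap and Map1lc3b, and Map1lc3b and Gabarapl2, did not overlap.

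Sqstm1 (chr11:50199366-50210827) encodes p62, the receptor that carries ubiquitinated cargo to LC3. It was at 14961, 16418, 13135 and 14081 in Control and at 9508, 13972, 13142 and 11385 in Low AA mice. H828 and H817 lay within the Control range, at its lower end. The log2 difference was -0.30 (SE 0.13, unadjusted p = 0.0496, adjusted p = 0.422, limma). Tfeb, the transcription factor of the lysosomal E-box, was at 118, 173, 110 and 135 in Control and at 115, 143, 145 and 135 in Low AA mice. Its log2 difference of 0.02 (95% interval -0.35 to 0.39) changed sign when F129, F7111, H828 or H817 was left out.

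**Figure D2:**
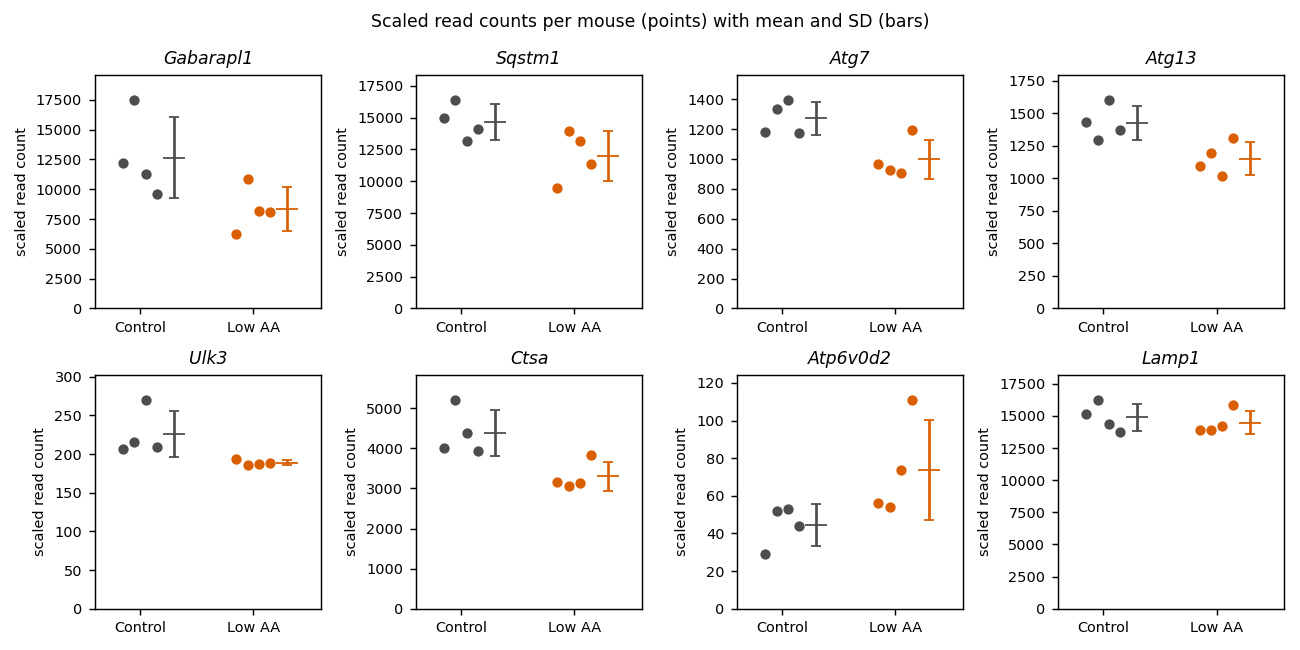
Scaled read counts (vertical axis, from 0) of 8 members in each mouse, as grey points for Control and orange points for Low AA, with the mean and SD of the 4 mice as a bar beside them. Ctsa, Ulk3 and Atp6v0d2 separate the diets without overlap, Gabarapl1, Sqstm1, Atg7 and Atg13 overlap by 1 or 2 Low AA mice, and Lamp1 overlaps throughout.

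The median of the 29 autophagy log2 differences was -0.10, and 19 of the 29 were negative. Mouse by mouse, the median log2 deviation of these genes from their mean over the 8 mice was 0.07, 0.02, 0.01 and 0.02 in Control mice and -0.09, -0.03, -0.05 and 0.01 in Low AA mice. H1315, the highest of the Low AA mice (0.0061), lay close below F7111, the lowest of the Control mice (0.0121). After the correction for transcript length described below, the deviations were 0.094, 0.0635, 0.0564 and 0.0324 in Control mice and -0.0956, -0.0628, -0.0403 and -0.012 in Low AA mice. No test was made of this median, since the genes are not replicates. Without F7111 the median log2 difference was -0.0654, and without H1126 it was -0.0576.

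The V-ATPase genes had no common direction, with 11 of 19 positive and a median log2 difference of 0.07. The counts here include the processed pseudogene Atp6v0c-ps2, placed in the V0 sector, with a log2 difference of 0.11. The V1 sector, which splits ATP, had 5 of 9 negative and a median of -0.05, and the membrane-bound V0 sector, through which protons pass, had 3 of 8 negative and a median of 0.09. Atp6v1a, the catalytic subunit, was at 1463, 1426, 1617 and 1455 in Control and at 1572, 1738, 1616 and 1553 in Low AA mice. Its log2 difference was 0.12 (95% interval -0.07 to 0.32, adjusted p = 0.668), and F7111 was the Control mouse within the Low AA range. Atp6v1e1, of the stalk between the sectors, was at 2667, 3196, 2105 and 2687 and at 2756, 2900, 3560 and 3240, with a log2 difference of 0.23 (SE 0.14, adjusted p = 0.566). Only F2212 kept its groups from separating, and the difference was 0.33 without F2212 and 0.13 without F7111. Atp6v0d1, the common d subunit, was at 1967, 2259, 1865 and 1802 and at 1584, 1822, 1789 and 2018 (log2 difference -0.13, adjusted p = 0.72). Atp6ap2, an accessory subunit also known as the prorenin receptor, was at 1137, 1156, 1166 and 1016 and at 1097, 1260, 1114 and 1087 (log2 difference 0.03, 95% interval -0.18 to 0.24). The sign of the Atp6ap2 difference changed without F2110 or H828.

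Atp6v0d2 (chr4:19876841-19922605), an isoform of the d subunit best known from osteoclasts and macrophages, was the member with the highest log2 difference and among the least expressed. It was at 29, 52, 53 and 44 in Control and at 56, 54, 74 and 111 in Low AA mice, with no overlap between diets. The margin between them was a single count, 53 against 54. The log2 difference was 0.69 (SE 0.28, 95% interval 0.08 to 1.31, unadjusted p = 0.0305, adjusted p = 0.356, limma), and it ran from 0.48 to 0.82 over the alternatives. At these low values the log2(value + 1) scale slightly understates a fold change. Of 16 macrophage and Kupffer cell markers listed, 15 were in the table and none was at 0, all 15 had positive log2 differences (median 0.21), and none passed the test. Their sum ran from 11773 to 18102 over Control mice and from 12893 to 17586 over Low AA mice, with F2212 the highest and F7111 the lowest. The part of these cells in the Atp6v0d2 values was not tested.

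Atp6v0c, the proteolipid subunit that forms the proton-carrying ring, was spread widely over the mice, at 495, 626, 218 and 780 in Control and at 259, 366, 377 and 424 in Low AA mice. Its log2 difference was -0.45 (95% interval -1.20 to 0.30, adjusted p = 0.683). It rested on single mice, at -0.83 without F7111 (adjusted p = 0.133, no overlap) and -0.21 without F2110. The table also lists Atp6v0c-ps2, a processed pseudogene of it and a member by the symbol rule, at 3738, 4146, 3755 and 3437 and at 3828, 4160, 3980 and 4258. Atp6v0c lies at chr17:24163866-24169702 on the minus strand and Atp6v0c-ps2 at chr6:37806086-37806550 on the plus strand. In the reference, the 465 bases of the pseudogene differed from the coding sequence of Atp6v0c at 1 base, T111C, counted from 1 at the first coding base, with the base of Atp6v0c first. The stretch around it is shown because it is all that tells the pair apart in this region, with that base in capitals.
Atp6v0c: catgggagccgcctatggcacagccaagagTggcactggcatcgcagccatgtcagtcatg
Atp6v0c-ps2, chr6:37806166-37806226, plus strand: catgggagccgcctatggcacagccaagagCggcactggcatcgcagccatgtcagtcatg
Of reads of 100 bases that start and end inside this stretch of 465 bases, 27.3% would cover the differing base. Atp6v0c held from 5.49% (F7111) to 18.5% (F2110) of the sum of the pair, so the listed values of both genes are uncertain. Summed into 1 gene, the pair was at 4298.8 ± 337.2 in Control and at 4413.0 ± 254.7 in Low AA mice (SD, n = 4 each), and the log2 difference turned from -0.45 to 0.04 (limma adjusted p = 0.917). How the counting divided reads between them was not tested.

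**Figure D3:**
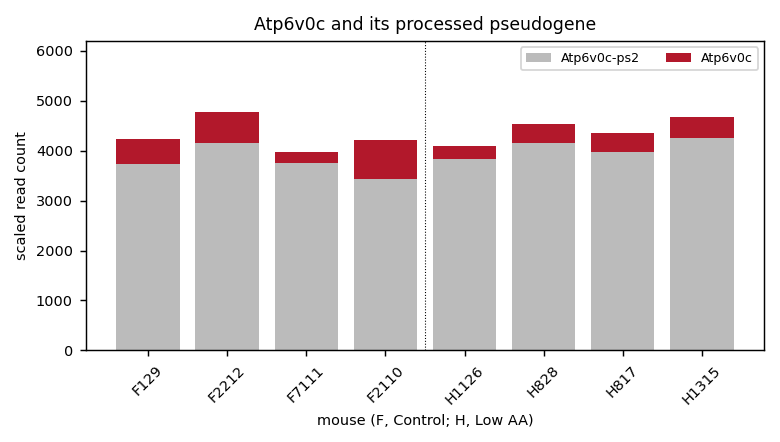
Scaled read counts of Atp6v0c (red) stacked on those of its processed pseudogene Atp6v0c-ps2 (grey) in each mouse, Control to the left of the dotted line and Low AA to the right. The summed height varies little between mice, from 3973 to 4772, while the red share varies from 5.49% to 18.5%.

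The 11 cathepsins were also mixed in direction, with 5 negative and a median log2 difference of 0.01. Ctsa (chr2:164832873-164841032), a serine carboxypeptidase that also protects beta-galactosidase and neuraminidase in the lysosome, stood apart from the other cathepsins in rank. It was at 4006, 5205, 4368 and 3938 in Control and at 3165, 3053, 3143 and 3832 in Low AA mice, with no overlap between diets. H1315 lay just below the lowest Control mouse and the other Low AA mice lay close together. The log2 difference was -0.41 (SE 0.12, 95% interval -0.67 to -0.14, unadjusted p = 0.00621, adjusted p = 0.193, limma), and its adjusted p ran from 0.138 to 0.491 over the alternatives.

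The other cathepsins had log2 differences between -0.20 and 0.13. Ctsf was at 990, 930, 809 and 818 in Control and at 663, 835, 775 and 812 in Low AA mice, with the lowest difference of these (-0.20, SE 0.11, adjusted p = 0.539). Ctss, a protease of antigen-presenting cells, was at 1044, 1389, 776 and 915 and at 1138, 972, 1178 and 1128, with the highest difference (0.13, SE 0.16, unadjusted p = 0.451 in limma), which was 0.28 without F2212 and 0.00 (0.0029) without F7111. Its highest and lowest mice, F2212 and F7111, were also those of the macrophage marker sum. They were also those of the genes with the shortest transcripts (median log2 deviations of 0.20 and -0.18). The Ctss transcript, of 1355 bases, is among these short ones. The part of macrophages or of transcript length in the Ctss spread was not tested. Ctsb, a cysteine protease of most tissues, was at 12951, 17071, 12635 and 11761 and at 13699, 12798, 13473 and 14973 (log2 difference 0.03, 95% interval -0.25 to 0.31). Ctsd, the aspartic protease, was at 11736, 13153, 10120 and 10701 and at 10171, 10221, 11036 and 11945 (log2 difference -0.07, 95% interval -0.31 to 0.17). Ctsl, another cysteine protease, was at 23746, 24063, 22533 and 32954 and at 24569, 23764, 28601 and 33326, so that F2110 and H1315 exceeded the rest (log2 difference 0.10, 95% interval -0.24 to 0.44). For each of these 3 genes the diets overlapped.

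Per kilobase over the 8 mice, Ctsl was the most abundant cathepsin (13543.6 ± 2210.1, SD), with no overlap with Ctsd in second place (5235.2 ± 505.2). Ctsz (4294.7 ± 582.0) and Ctsh (3903.6 ± 437.5) came next and overlapped, with Ctsz higher in 6 of the 8 mice. Ctsb (2882.2 ± 350.1) and Ctsa (1052.9 ± 200.5) followed and did not overlap. Ctso (422.2 ± 34.3) and Ctsf (418.7 ± 49.6) were not separated by more than their spread. Ctse (13.9 ± 4.8), known from stomach and immune cells, was the least abundant.

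The Lamp genes, which encode the heavily glycosylated proteins that line the lysosomal membrane, had log2 differences close to 0. Lamp1 (chr8:13159161-13175338) was at 15155, 16245, 14386 and 13770 in Control and at 13931, 13921, 14224 and 15866 in Low AA mice, a log2 difference of -0.04 (95% interval -0.25 to 0.17). Lamp2 (chrX:38401357-38456454), a form of which takes up proteins in chaperone-mediated autophagy, was at 17745, 17360, 19187 and 20404 and at 19247, 18200, 18017 and 19788, a log2 difference of 0.01 (95% interval -0.20 to 0.22). For both genes a 1.5-fold change in either direction lay outside the interval. Per kilobase, Lamp1 (6589.2 ± 427.0) exceeded Lamp2 (5200.7 ± 297.2) in all 8 mice.

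The spread of the members among Control mice had a pattern in which F2212 and F7111 took the ends. F2212 had the highest value of the 8 mice in 21 of the 61 members (34.4%, against 20.7% of all genes), among them 7 of the 11 cathepsins. F7111 had the lowest in 22 of the 61 (36.1%, against 19.9%), among them 9 of the 19 V-ATPase genes. The median log2 deviation of the cathepsins was 0.29 in F2212 and -0.11 in F7111, and lay between -0.10 and 0.10 in the other mice. For the V-ATPase genes it was 0.11 in F2212, -0.06 in F7111 and -0.08 in F2110. After the correction for transcript length, the V-ATPase deviation of F2212 was -0.02, while the cathepsin deviation of F2212 was 0.16. Cathepsins thus remained high in F2212, where the macrophage marker sum (18102) and Cela1 were also the highest. The marker sum was nearly as high in H1126 (17433) and H1315 (17586), where the corrected cathepsin deviations were -0.08 and 0.03. The part of other cells or tissue in the cathepsin values was not tested.

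**Figure D4:**
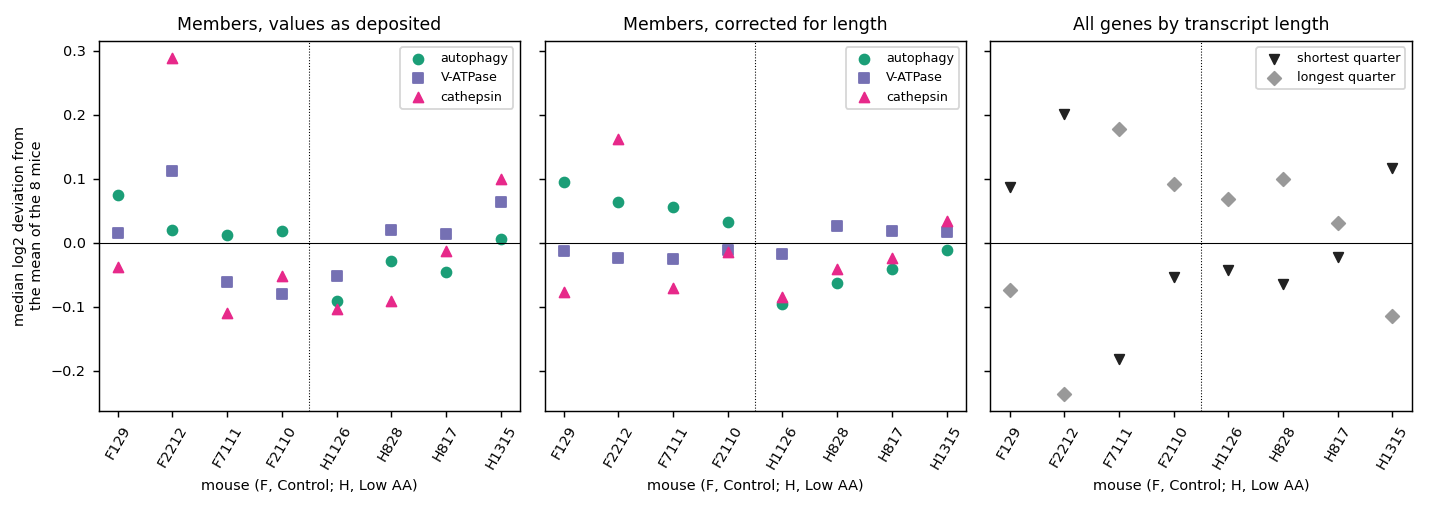
Median log2 deviation from the mean of the 8 mice for the autophagy, V-ATPase and cathepsin members as deposited (left) and after the correction for transcript length (middle), and for all genes with the shortest and the longest transcripts, 2917 each (right); Control mice are left of the dotted line. F2212 and F7111 lean in opposite directions by length, the V-ATPase points draw together near 0 once length is corrected, and the cathepsins of F2212 stay at 0.16.

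With the length correction, which 11667 genes could enter, 123 genes were called (48 higher and 75 lower) and 45 of the 47 calls made on the deposited values were among them. Of the members, 0 were called, and Ctsa again had the smallest adjusted p (0.142, log2 difference -0.41). The members without overlap between diets numbered 8 (13.1%, against 9.47% of those genes). Lower ones were Ctsa, Atg13, Map1lc3a, Atp6v1g1 and Ulk3, and higher ones were Atp6v0d2, Atp6v1e1 and Atp6v1a. Map1lc3a had a log2 difference of -0.24 (SE 0.08, adjusted p = 0.164) and Atp6v1e1 of 0.26 (SE 0.10, adjusted p = 0.238) in this fit. With fewer mice more genes separate: on the deposited values, 10 members (16.4%) were free of overlap without F7111, against 12.2% of all genes, 9 (14.8%) without F2212, against 11.7%, and 5 (8.2%) without H1315, against 12.7%. In each case 0 members were called.

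The wider pathway was read from lists of other autophagy genes, lysosomal hydrolases and their cofactors, lysosomal membrane and transport proteins, delivery genes and cystatins. Of 151 genes listed, 137 were in the table and 0 were called, and at an unadjusted p under 0.05 there were 7 lower and 7 higher (5.11% each, against the 6.7% and 5.13% above). Among the 48 other autophagy genes, 27 had positive log2 differences, with a median of 0.04. Vmp1, a membrane protein needed to form autophagosomes, was at 2878, 2591, 2738 and 2964 in Control and at 3342, 3575, 3528 and 3389 in Low AA mice. Its log2 difference was 0.31 (SE 0.08, adjusted p = 0.163), with no overlap and the Control mice close together. Vps41, of the HOPS complex that tethers membranes to the lysosome, was at 2073, 2115, 1664 and 1961 and at 2391, 2357, 2704 and 2498 (log2 difference 0.35, SE 0.10, adjusted p = 0.193). Its partner Vps33a (0.19) and the cargo receptor Optn (0.22) also lay higher in every Low AA mouse, and the lipid kinase Pik3c3 (-0.19) lay lower in every Low AA mouse. The HOPS genes did not share a direction. Vps16 (-0.28, unadjusted p = 0.0385 in limma), Vps18 (-0.17) and Vps39 (-0.08) had negative log2 differences, and Vps11 (0.05) a positive one. Among 45 hydrolases and cofactors the median log2 difference was -0.03, with Gm2a (-0.28) lower and Prcp (0.36) and Sumf1 (0.15) higher in every Low AA mouse. The 23 membrane and transport genes had a median of -0.05, with Slc17a5, the sialic acid exporter, at -0.31 and lower in every Low AA mouse. The 19 delivery genes had a median of 0.01 and the 2 cystatins of -0.03. Complete separation was thus seen for 3 genes lower and 6 higher of the 137 (2.19% and 4.38%, against 3.55% and 3.26% of all genes).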

How the data were processed

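Liver RNA of 8 mice was sequenced from polyadenylated, stranded libraries. The submitters' processing notes name bcl2fastq 1.8.2, STAR 2.5.0a, RSEM 1.2.6, edgeR 3.10.5, R 3.2.1 and mm10, with no roles. The authors deposited a signal, a read count per gene and mouse scaled and rounded to whole numbers; the scaling was inferred from near-equal medians (433.0 to 449.0) and from gaps among low whole numbers, seen by eye in most mice. They also deposited a signed fold change, a score, and its q-value, neither of which was used. Every gene had at least 28 in 3 or more mice.

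The members and lists were chosen with earlier results of these data known. The log2(value + 1) of each gene was fitted in limma 3.58.1 (R 4.3.3) with diet as the sole term, a mean-variance trend, 2-sided tests and Benjamini-Hochberg adjustment over 11784 genes, at an adjusted p under 0.05. The procedure was tested on simulated data, which held no dependence on transcript length, so that check does not cover the pattern seen in F2212 and F7111. Counts over members were set beside the same counts over all genes, with no test of a list. The labels do not say whether mice shared a cage or litter.

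Named members were those at an unadjusted p under 0.05 or without overlap, the 2 with the largest remaining difference in each of the autophagy, V-ATPase and cathepsin groups, and a list of central members. Alternatives were a pseudocount of 0.1 or of 5, a table limited to the 8000 most abundant genes, equal column totals, equal medians, no trend, robust moderation, an adjusted p under 0.10 and each mouse left out. Chosen after values were seen were a loess correction for transcript length (span 0.3) and the sum of Atp6v0c and its pseudogene. Lengths are of 1 transcript per gene from GENCODE M21, RefSeq-matched where possible; this choice replaced earlier ones after the length given to Ctsl was seen to be too long. Older symbols matched 953 genes. The read length of 100 bases is from the study's methods. Promoters are from RefSeq, and figures were drawn with matplotlib 3.10.9.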

Additional observations from a re-analysis of the deposited data

Results flagged for a closer look

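Of 60 sets of 4 mice examined (each named member and each group median, per diet), 5 held a mouse far from the other 3, where chance gives about 1 in 20. The gap to the nearest mouse, as a share of the range of the 4, was above Dixon's 95% critical value in each. These shares were taken on the log2 scale, while the values printed beside them for genes are scaled read counts. H1315 was high among Low AA mice for Ctsa (3832, a share of 0.8415) and for Lamp1 (15866, a share of 0.8354). F7111 was high among Control mice for Ulk3 (270, a share of 0.8399). H828 was high among Low AA mice for Atp6ap2 (1260, a share of 0.8339). F129 had the highest median deviation of the autophagy genes among Control mice (0.074, a share of 0.8708).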

How the results depend on the processing

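In each alternative run, 0 members were called of the 61, or of the 54 that were among the 8000 most abundant genes, the smallest adjusted p being 0.124 (Wipi1 without F2212). Over all genes, 132 were called at an adjusted p under 0.10, 19 among the 8000 genes with the highest mean, 30 without the mean-variance trend and 123 with the length correction, against 47. The share of calls that were higher was 39.0% with the length correction and 25.5% without it. Members without overlap numbered 1 among the 8000 genes (1.85%, against 7.14% of those genes), 5 with equal column totals (8.2% against 6.54%) and 8 with the length correction (13.1% against 9.47%), where the deposited values gave 3 (4.92% against 6.81%), and members higher at an unadjusted p under 0.05 numbered 0 among the 8000 genes (of which 6.0% were higher) and 2 with the length correction (3.28% against 7.2%), where the deposited values gave 1. With each mouse left out, called genes ran from 16 (without H817) to 77 (without F2212), with 29, 21 and 19 without F129, H1126 and H828. Members without overlap ran from 3 (without H1126, 4.92% against 9.38% of all genes) to 10 (without F7111, 16.4% against 12.2%). Those lower at an unadjusted p under 0.05 ran from 4 to 8 (without F7111, 13.1% against 7.32%), and those higher from 0 (without F129, F2110, H817 or H1315) to 3 (without F2212, 4.92% against 6.15%). The median log2 difference ran from -0.118 to -0.0576 for autophagy and from -0.0182 to 0.0962 for V-ATPase genes, the latter negative without F7111. Differences near 0 changed sign when a mouse was left out: Tfeb from -0.0654 to 0.151, Lamp1 from -0.0835 to 0.0038, Lamp2 from -0.0215 to 0.0562, Ctsb from -0.0384 to 0.141, Atp6ap2 from -0.0231 to 0.0478 and Map1lc3b from -0.0068 to 0.159. Atp6v0c turned from -0.45 to 0.04 (0.0392) when summed with its pseudogene. The other named members kept their direction in each alternative that fitted them; Ulk3 and Atp6v0d2 were not among the 8000 genes. Apart from fewer genes or mice tested, the cause of these shifts was not tested. No paired analysis was possible because no mouse code links a Control to a Low AA mouse, and the replicate numbers only follow accession order. The number of mice, 4 per diet, limits the precision: intervals lay within a 1.5-fold change for 50 of the 61 members.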

Other observations

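Markers of other cell types, listed to describe the samples, gave 0 called genes. Col1a1 and Col1a2, collagen genes of stellate cells and fibroblasts, had lower values in Low AA mice, with an unadjusted p under 0.05: Col1a1 was at 147, 70, 120 and 82 in Control and at 52, 37, 69 and 38 in Low AA mice, a log2 difference of -1.07 (SE 0.28, limma adjusted p = 0.148). Of the other 6 markers on that list, Rgs5 and Reln had positive log2 differences (0.29 and 0.16), Des and Col3a1 negative ones (-0.29 and -0.48), and Dcn and Lrat lay near 0 (-0.02 and -0.03). The summed stellate cell and fibroblast markers ran from 7976 to 10367 in Control and from 8223 to 10352 in Low AA mice. Dcn, at 5133 to 6748, made up most of each sum, so Col1a1 and Col1a2 weighed little in it. All 4 cholangiocyte markers in the table had lower means on the Low AA diet (median log2 difference -0.62). Of these, Sox9 (-1.05) and Krt19 (-0.87) had an unadjusted p under 0.05 in limma. The cholangiocyte sum ran from 1124 to 2265 in Control and from 826 to 1316 in Low AA mice, and Spp1 (755 to 2075) made up most of it. The macrophage marker Emr1 was higher at that threshold (log2 difference 0.29, limma adjusted p = 0.418). The 7 endothelial markers had a median log2 difference of 0.07. F2212 was the highest mouse for the neutrophil marker S100a9 (130 against 19 to 51) and for the lymphocyte markers Cd79a and Cd79b summed (204 against 36 to 103), as it was for Cela1. Only 1 of 6 neutrophil and 2 of 8 lymphocyte markers listed were in the table, from which genes present in F2212 alone would be missing.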
